A study of Mus musculus with 19 samples.

Results

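The genes described here are those whose symbol begins Psma to Psmg followed by a number, without the inducible subunits Psmb8, Psmb9 and Psmb10. The rule matched 57 of the 17004 probes of the authors' normalized table and 40 of the 11504 genes it names. Of these, 38 are subunits, assembly chaperones or activators of the proteasome, and Psmc3ip and Psme3ip1 were matched by their name only. All 40 genes had at least 1 probe past the filter on dim probes, which asked for detection at p under 0.01 on at least 3 arrays, and so did 56 of the 57 probes, and 44 probes were detected on all 19 arrays. The 7 other genes of these families on the list of roles, Psma1, Psma6, Psma8, Psmb11, Psmd3, Psmg4 and Psmf1, were not analysed here.

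RNA of mouse neutrophils was measured on Illumina BeadChip arrays in 4 groups. NN are naive neutrophils from bone marrow (7 arrays), G-MDSC are neutrophils from the spleens of mice that carry a tumour (4 arrays), and TAN are neutrophils taken from tumours (3 arrays, numbered 1, 2 and 4). The SM16 group holds tumour neutrophils obtained once SM16, a drug that blocks the TGF-beta receptor kinase Alk5, had been given (5 arrays). The labels call each sample a clonal mouse and give no strain, age, tumour line, dose or sorting gate, and NN mice carry no stated treatment. They do not say that replicates came from separate animals, so p-values measure only the spread between arrays.

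The proteasome is the protease that degrades proteins tagged with ubiquitin. Its core is a barrel of alpha and beta rings with the active sites inside, on Psmb5, Psmb6 and Psmb7. A regulatory particle caps the barrel: its base holds a ring of ATPases that unfold the substrate, and its lid removes the ubiquitin. Dedicated chaperones build core and base, and other activators (Psme1 to Psme4) can open the barrel without the regulatory particle. Cells that lose proteasome activity raise subunit genes together through the transcription factor Nfe2l1, which binds the antioxidant response element. Interferons instead raise Psmb8, Psmb9 and Psmb10, which replace the catalytic subunits and shift the peptides made for antigen presentation.

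RefSeq promoters (mouse build GRCm38.p6, 250 bases before to 50 after the start) were found for 34 of the 40 genes, and not for Psmb1, Psmb2, Psmb7, Psmc3, Psmd7 and Psmg2. The core of the antioxidant response element, TGACNNNGC on either strand, occurred in 6 of the 34 (17.6%): Psmb5, Psmb6, Psmc6, Psmd9, Psmd12 and Psme4. It occurred in 12.4% of all 32851 promoters. Shares of the 34 count genes, each by any of its promoters, and shares of all promoters count single promoters, so their units differ. CCAAT, a box bound by NF-Y, occurred on either strand in 12 of the 34 (35.3%) and in 37.4% of all promoters, and no gene of the 34 held both motifs. The 120 bases just before the start are shown for Psmb6 at chr11:70525237-70525356 (plus strand) and Psmb5 at chr14:54617996-54618115 (minus strand). They are also shown for Psmd9 at chr5:123228070-123228189 (plus strand) and Psmg1 at chr16:95990961-95991080 (minus strand). These genes were chosen because their brightest probes were called higher in SM16 than in G-MDSC. The second probe of Psmd9 was not, at -0.24, and Psmb5 was not called in TAN against G-MDSC. Capitals mark TGACNNNGC. It ends at the last base before the start in Psmb6, begins 47 bases before the start in Psmb5 and 31 bases before it in Psmd9, and has no match in the Psmg1 window.
Psmb6: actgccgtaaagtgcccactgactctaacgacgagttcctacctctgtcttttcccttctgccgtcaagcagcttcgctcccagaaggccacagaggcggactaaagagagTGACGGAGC
Psmb5: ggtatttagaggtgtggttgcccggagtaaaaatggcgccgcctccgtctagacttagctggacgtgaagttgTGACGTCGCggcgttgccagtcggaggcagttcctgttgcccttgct
Psmd9: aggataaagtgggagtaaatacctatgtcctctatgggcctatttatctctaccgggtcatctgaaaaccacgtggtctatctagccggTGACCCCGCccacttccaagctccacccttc
Psmg1: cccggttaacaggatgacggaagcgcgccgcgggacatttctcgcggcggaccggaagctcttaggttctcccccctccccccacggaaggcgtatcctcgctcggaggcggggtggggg

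Levels are log2 intensities after background correction and quantile normalization (neqc of limma), so they compare arrays for 1 probe and not 1 gene with another. Each gene is given by its brightest probe. Differences are log2 values ± SE from 1 limma fit of all 4 groups, and a call needed an adjusted p under 0.05 (Benjamini-Hochberg, 13945 probes). In bulk RNA, fewer cells of a type and less RNA per cell cannot be told apart.

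The arrays differed in ways that bear on these genes. From 9599 to 12492 probes were detected per array. On TAN replicates 1 and 2, but not on TAN replicate 4, probes of 1 gene parted: of 828 genes with a pair of bright probes, the gap between the probes lay over 2 log2 units from that in SM16 for 28% and 26.8%, against 0.362% on TAN replicate 4 and at most 1.81% on any other array. Of the 56 tested proteasome probes, 14 read over 1 log2 unit lower on TAN replicates 1 and 2 than on TAN replicate 4, and 6 over 1 unit higher. Called differences from TAN are therefore given with TAN replicate 4 alone as well, which lends this lone array the spread of the other groups. All G-MDSC arrays, with NN replicates 6 and 7, had a lowest signal of 10.3 to 17.7, while the remaining arrays began at 47.5 to 65.5, so these 2 sets of arrays cannot be told apart from spleen against tumour.

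The 9 tested neutrophil markers summed to 17.6 to 18.3 log2 units over all arrays, a sum that follows the brightest, such as S100a8. Against NN, 7 of the 9 were called lower in TAN (all genes: 29.9%) and 6 in SM16 (all genes: 31.5%), with 0 higher in each. In G-MDSC, 4 were lower (all genes: 23.1%) and 2 higher (all genes: 22.1%). The 11 tested markers of granulocyte precursors and cycling cells were lower than in NN for 11 in TAN (all genes: 29.9%), 11 in SM16 (all genes: 31.5%) and 9 in G-MDSC (all genes: 23.1%). Their summed level was 17.4 to 17.6 in NN, 16.3 to 16.8 in G-MDSC, 12.2 to 13.5 in TAN and 12.8 to 14.5 in SM16, with 1 marker undetected on every TAN array and 3 on every SM16 array. The 7 macrophage and monocyte markers summed to 12.6 to 13.7 in NN, 12.8 to 13.2 in G-MDSC, 14.4 to 16.4 in TAN and 16.7 to 17.5 in SM16, with none undetected throughout a group. The 3 erythroid markers summed to 16.3 to 16.5 in NN and 8.5 to 13.8 on the other arrays, with 2 undetected on every TAN array and 1 on every SM16 array. The 4 hair markers summed to 10.8 to 14.1 in SM16 and 9.5 to 10.4 on the other arrays. The 3 endothelial markers summed to 9.0 to 10.2 in SM16, 7.0 to 8.7 in TAN, 8.7 to 9.1 in G-MDSC and 9.2 to 10.7 in NN. The 5 T and NK markers summed to 13.5 to 13.8 in NN and 9.7 to 12.9 on the other arrays. The 3 B cell markers summed to 10.6 to 11.8 in NN and 7.9 to 13.2 on the other arrays. Markers undetected on every array of a group passed the filter on dim probes through other groups. Their calls against that group are therefore not independent of that filter. The part of these cells in the proteasome differences below was not tested.

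With quantile normalization, spleen neutrophils had lower levels of many proteasome genes than marrow neutrophils, while treated tumour neutrophils had higher levels of many. In G-MDSC against NN, 2 of the 40 genes were higher (percentage of all 9523 genes called higher: 22.1%) and 17 were lower (all genes: 23.1%). The median difference was -0.34 over the 40 genes and -0.03 over all genes. In SM16 against NN, 18 were higher (all genes: 32.7%) and 6 lower (all genes: 31.5%), with medians of 0.25 and 0.02. TAN against NN had 17 higher (all genes: 39.1%) and 10 lower (all genes: 29.9%), with medians of 0.14 and 0.19, close to the background. These 3 comparisons share the NN arrays.

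Tumour against spleen gave the widest difference in counts. SM16 against G-MDSC had 23 of 40 genes higher (all genes: 32.4%) and 3 lower (all genes: 29.5%), with medians of 0.54 over the 40 genes and 0.05 over all. In TAN against G-MDSC, 23 were higher (all genes: 37.4%) and 6 lower (all genes: 25.5%), with medians of 0.61 and 0.19. With TAN replicate 4 alone, 18 were higher (all genes: 23.1%) and 3 lower (all genes: 19.8%). Groups did not overlap for 25 of the 40 genes in SM16 against G-MDSC (23 higher, 2 lower), where 54.7% of all genes did not.

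Counts with spleen depend on the scaling. Scaling each array to its median, in place of quantile normalization, moved the median of all genes from -0.03 to 0.21 in G-MDSC against NN and from 0.05 to -0.28 in SM16 against G-MDSC. The 40 genes then gave 7 higher (all genes with this scaling: 31.1%) and 7 lower (15.4%) in G-MDSC against NN, and 12 higher (22.7%) and 6 lower (39.2%) in SM16 against G-MDSC. They gave 13 higher (24%) and 10 lower (34.1%) in TAN against G-MDSC, and 8 higher (28.9%) and 6 lower (32.5%) in SM16 against NN. In SM16 against TAN, given below with 8 higher and 10 lower, it gave 9 higher (16.4%) and 7 lower (19.4%). Relative to the median of all genes, the proteasome median stayed lower in G-MDSC than in NN (-0.31 with quantile normalization, -0.19 with median scaling). It stayed higher in SM16 than in G-MDSC (0.49 and 0.25), in TAN than in G-MDSC (0.425 and 0.482) and in SM16 than in NN (0.23 and 0.15). The sign turned in TAN against NN (-0.05 and 0.15) and in SM16 against TAN (0.15 and -0.10). Against the NN arrays of the same set, replicates 6 and 7, G-MDSC had 1 gene higher and 9 lower (all genes: 12.3% and 14%). Leaving out the background correction changed few calls but shrank the differences of dim genes, for example of Psmd1 in G-MDSC against NN to -0.96 (adjusted p = 4.42e-05) and of Psmc3ip to -1.20 (adjusted p = 6.27e-07), both given below with it.

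**Figure D1:**
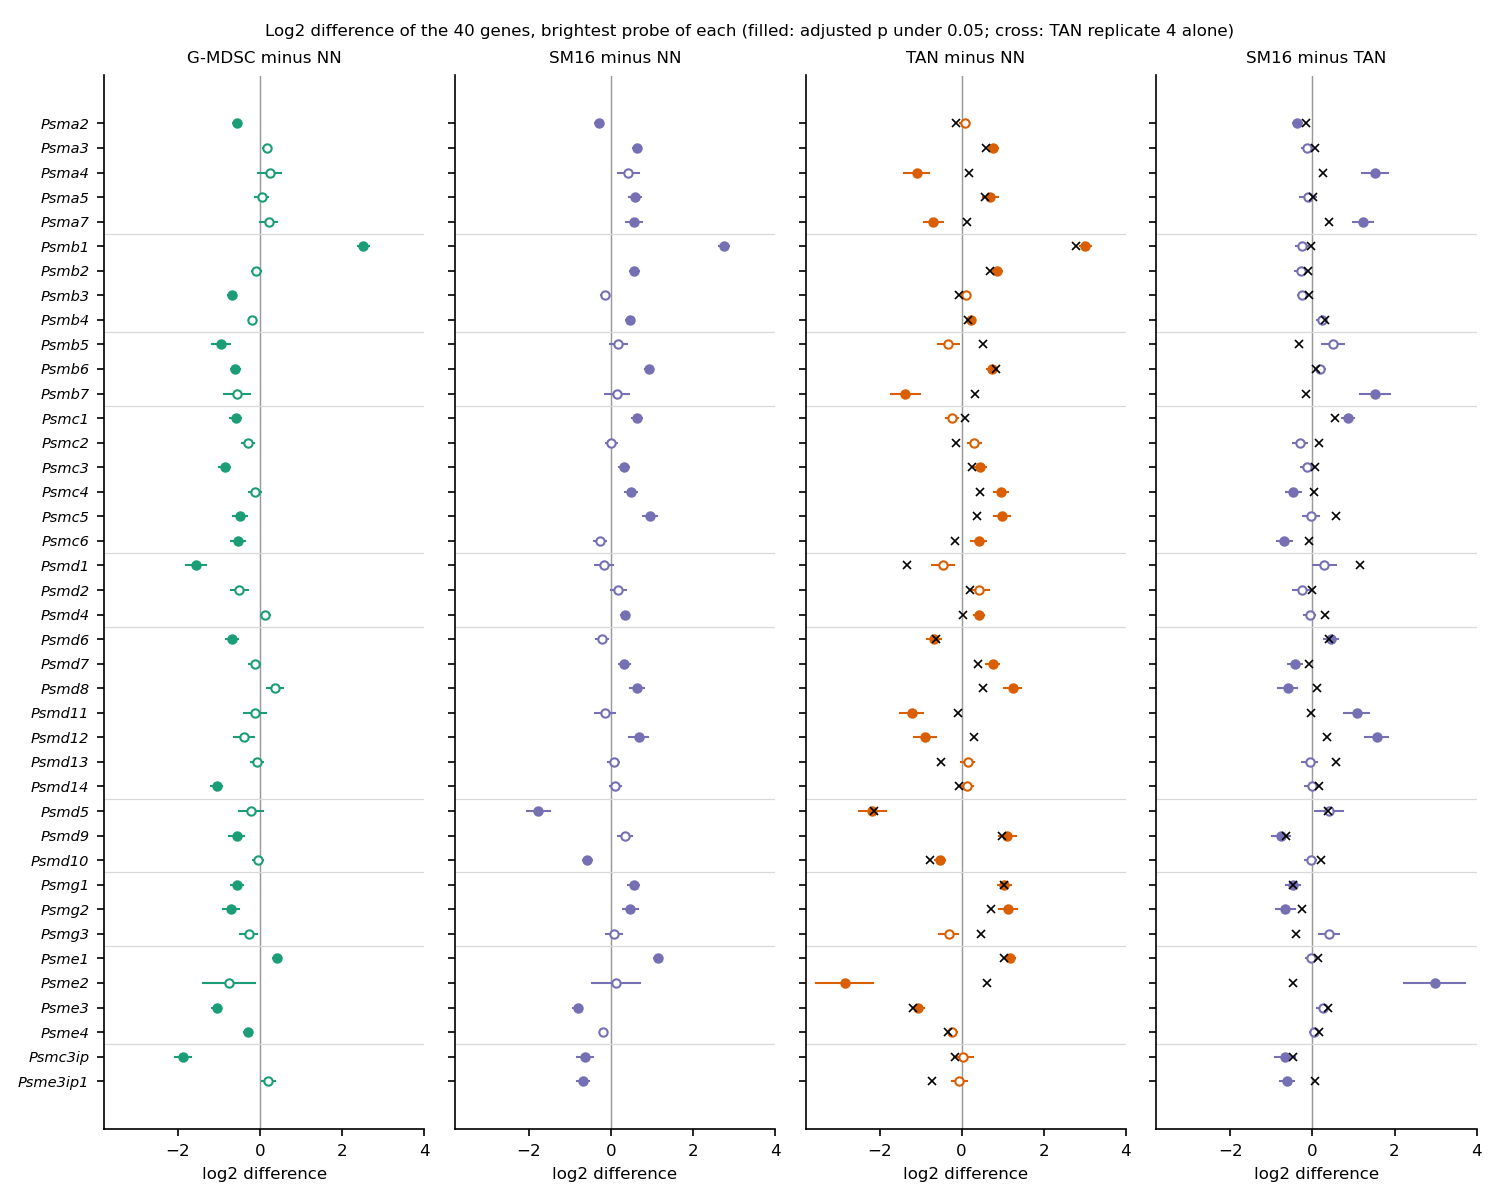
Log2 differences (x axis) of the 40 genes (y axis, brightest probe, ordered by role with lines between roles) in 4 comparisons; bars are the SE of the fit, filled points were called, and crosses take TAN replicate 4 alone. Most G-MDSC points lie left of 0, and Psmb1 at 2.51 lies farthest to the right, and the crosses part from the TAN points most in Psme2, Psmb7 and Psma4.

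The alpha ring gates the core. In G-MDSC against NN, 1 of its 5 genes was lower (all genes: 23.1%) and 4 were not called. In SM16 against NN, 3 were higher (all genes: 32.7%) and 1 lower (all genes: 31.5%). Median scaling left 1 higher (all genes: 28.9%) and none lower (all genes: 32.5%) in SM16 against NN. Psma7, an outer-ring subunit, read 10.59, 10.90 and 11.18 on the NN arrays at the lowest, the median and the highest. Psma7 read 10.52, 11.35, 11.33 and 11.17 in G-MDSC, 9.73, 9.84 and 11.02 in TAN (replicates 1, 2 and 4, in this order throughout) and 11.35, 11.60, 11.15, 11.38 and 11.71 in SM16. SM16 arrays lay high and overlapped NN only at the lower end, while TAN replicates 1 and 2 lay below every other array. Psma7 was higher in SM16 than in NN by 0.55 ± 0.20 (adjusted p = 0.0188), but not called with median scaling, at 0.31 (adjusted p = 0.258). It was lower in TAN than in NN at -0.69 (adjusted p = 0.0132), a call that was lost with TAN replicate 4 alone, at 0.14 (adjusted p = 0.686).

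Psma4 showed the same split of TAN arrays. Psma4 read 11.23, 11.35 and 11.89 on the NN arrays (lowest, median, highest) and 11.31, 11.80, 11.92 and 11.65 in G-MDSC. Psma4 in TAN read 9.68, 9.75 and 11.60 and in SM16 11.71, 12.15, 11.37, 11.87 and 12.21. The lowest of all 19 arrays were TAN replicates 1 and 2, while TAN replicate 4 lay within the NN range. The difference of TAN from NN was -1.09 (adjusted p = 0.00347), and 0.17 (adjusted p = 0.654) with TAN replicate 4 alone. Psma3 and Psma5 were higher in SM16 than in NN by 0.64 (adjusted p = 3.81e-06) and 0.59 (adjusted p = 0.00226), of which median scaling lost Psma5, at 0.38 (adjusted p = 0.143). Both were higher in TAN by 0.77 (adjusted p = 3.13e-06) and 0.70 (adjusted p = 0.00196). With TAN replicate 4 alone these were 0.58 (adjusted p = 0.00391) and 0.57 (adjusted p = 0.103), the second not called. The alpha ring had 3 of 5 genes higher in SM16 than in G-MDSC (all genes: 32.4%), with a median of 0.34. Median scaling turned this median to -0.35 with none called. Psma2 was lower in G-MDSC at -0.56 (adjusted p = 5.71e-05) and in SM16 at -0.29 (adjusted p = 0.0065), but median scaling put it at 0.04 (adjusted p = 0.878) in G-MDSC and at -0.35 (adjusted p = 0.0508) in SM16, neither called.

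Psmb1, a beta-ring subunit without an active site, had the largest difference of the 40 genes in all 3 comparisons with NN. Psmb1 read 8.74, 9.26 and 9.43 on the NN arrays at the lowest, the median and the highest. Psmb1 in G-MDSC read 11.87, 11.71, 11.65 and 11.55. Psmb1 read 12.33, 12.28 and 11.98 in TAN and 11.91, 12.08, 11.82, 11.87 and 12.05 in SM16. Every array outside NN lay over 2 log2 units above the highest NN array, and TAN lay above G-MDSC without overlap. Psmb1 was higher than in NN by 2.51 ± 0.13 (adjusted p = 7.12e-12) in G-MDSC (5.71-fold), by 2.76 ± 0.12 (adjusted p = 1.44e-13) in SM16 and by 3.02 ± 0.14 (adjusted p = 9.17e-13) in TAN. TAN replicate 4 alone gave 2.79 (adjusted p = 5.31e-09), and G-MDSC against NN of the same array set 2.44 (adjusted p = 5.84e-08). Psmb1 has 1 probe on the table, so no second probe bears on this difference.

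The other structural beta subunits moved less. The median of the 4 structural genes was -0.14 in G-MDSC against NN and 0.59 in SM16 against G-MDSC, and median scaling turned both, to 0.34 and -0.08. Psmb2 was higher than in NN by 0.57 (adjusted p = 8.12e-05) in SM16 and 0.85 (adjusted p = 5.38e-06) in TAN, and differed at -0.09 (adjusted p = 0.545) in G-MDSC, which was not called. Median scaling lost the call in SM16, at 0.34 (adjusted p = 0.108), and TAN replicate 4 alone kept that in TAN, at 0.69 (adjusted p = 0.00421). Psmb4 was higher in SM16 by 0.46 (adjusted p = 7.97e-05) and in TAN by 0.23 (adjusted p = 0.0429), the latter 0.15 (adjusted p = 0.427) with TAN replicate 4 alone, and its G-MDSC difference of -0.19 (adjusted p = 0.099) was not called. The rise of Psmb4 in SM16 was not called with median scaling, at 0.30 (adjusted p = 0.0773). Psmb3 was lower in G-MDSC than in NN at -0.68 (adjusted p = 8.56e-06), and was lower against NN of the same array set too, at -0.56 (adjusted p = 0.00832), but was not called with median scaling, at -0.19 (adjusted p = 0.311). Its differences in SM16 and TAN, -0.14 (adjusted p = 0.177) and 0.10 (adjusted p = 0.396), were not called.

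Of the 3 catalytic subunits, Psmb5 and Psmb6 were lower in G-MDSC than in NN, and Psmb6 was higher in both tumour groups. Psmb6 carries the caspase-like site. Psmb6 read 11.27, 11.60 and 11.65 on the NN arrays at the lowest, the median and the highest. Psmb6 in G-MDSC read 10.92, 10.86, 10.94 and 10.94. Psmb6 read 12.09, 12.33 and 12.35 in TAN and 12.45, 12.56, 12.28, 12.28 and 12.67 in SM16. All G-MDSC arrays lay below all NN arrays, and all TAN and SM16 arrays above them. The differences from NN were -0.60 ± 0.11 (adjusted p = 0.000117) in G-MDSC, 0.93 ± 0.10 (adjusted p = 9.74e-08) in SM16 and 0.74 ± 0.12 (adjusted p = 1.79e-05) in TAN. SM16 exceeded G-MDSC by 1.53 ± 0.11 (adjusted p = 1.78e-09), 2.89-fold, and by 0.86 (adjusted p = 2.21e-05) with median scaling. TAN replicate 4 alone kept Psmb6 above NN, at 0.83 (adjusted p = 0.000564). The fall in G-MDSC was not called with median scaling, at -0.16 (adjusted p = 0.336), or against NN replicates 6 and 7, at -0.37 (adjusted p = 0.083).

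Psmb5 carries the chymotrypsin-like site. Psmb5 read 7.80, 8.28 and 8.65 on the NN arrays at the lowest, the median and the highest. Psmb5 in G-MDSC read 7.42, 7.49, 7.28 and 7.16. Psmb5 read 7.39, 7.70 and 8.80 in TAN and 8.62, 8.18, 8.52, 8.17 and 8.83 in SM16. G-MDSC arrays lay below all NN arrays, and so did TAN replicates 1 and 2, whereas TAN replicate 4 was above the highest NN array. Psmb5 was lower in G-MDSC than in NN at -0.95 ± 0.22 (adjusted p = 0.0017), but the fall was not called against NN replicates 6 and 7, at -0.65 (adjusted p = 0.198). SM16 exceeded G-MDSC by 1.13 ± 0.24 (adjusted p = 0.000478) (0.74 (adjusted p = 0.0186) with median scaling) and its difference from NN was 0.18 (adjusted p = 0.471), not called.

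Psmb7 carries the trypsin-like site and has 3 probes, which disagreed on TAN replicates 1 and 2. The brightest probe read 11.20, 11.27 and 11.44 in NN (lowest, median, highest), 10.40, 10.84, 10.98 and 10.71 in G-MDSC, 8.93, 9.22 and 11.61 in TAN and 11.42, 11.54, 11.27, 11.24 and 11.73 in SM16. The other probes read 5.62, 5.70 and 11.63 and 11.11, 11.04 and 9.92 on the TAN arrays. On TAN replicates 1 and 2, both brighter probes were thus low and the third was high, and on TAN replicate 4 all 3 were near their SM16 levels. By the brightest probe Psmb7 was higher in SM16 than in TAN by 1.52 (adjusted p = 0.00327) and lower in TAN than in NN at -1.37 (adjusted p = 0.00192), while TAN replicate 4 alone gave -0.17 (adjusted p = 0.741) and 0.32 (adjusted p = 0.19). On that probe the G-MDSC arrays lay below all NN arrays, at a difference of -0.56. The adjusted p was 0.166 in the fit of 4 groups, whose spread the TAN arrays enter, and 0.000479 in a limma fit of G-MDSC and NN alone. Over the 3 probes this difference ran from -0.56 to 0.12, and none was called in the fit of 4 groups.

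The 3 inducible partners of these subunits were called higher in SM16 than in NN, although Psmb8 was not with median scaling. Psmb10, which replaces Psmb7, read 8.77, 9.25 and 9.54 in NN (lowest, median, highest), 10.50, 10.07, 9.97 and 10.39 in G-MDSC, 13.17, 12.97 and 12.71 in TAN and 12.12, 12.29, 12.33, 12.52 and 12.96 in SM16. No tumour array overlapped NN or G-MDSC. Psmb10 was higher than in NN by 3.18 ± 0.16 (adjusted p = 1.13e-12) in SM16, by 3.69 ± 0.19 (adjusted p = 2.9e-12) in TAN (3.45 (adjusted p = 1.81e-08) with TAN replicate 4 alone) and by 0.97 ± 0.17 (adjusted p = 0.000108) in G-MDSC. SM16 was lower than TAN at -0.50 (adjusted p = 0.0463), a call lost with TAN replicate 4 alone, at -0.26 (adjusted p = 0.721).

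Psmb9, which replaces Psmb6, read 7.42, 7.79 and 8.16 in NN (lowest, median, highest), 8.85, 8.97, 9.01 and 8.95 in G-MDSC, 9.81, 9.80 and 8.90 in TAN and 8.62, 8.38, 9.09, 8.94 and 8.95 in SM16. Every array outside NN lay above every NN array. Psmb9 was higher in G-MDSC by 1.12 ± 0.18 (adjusted p = 4.68e-05) and in SM16 by 0.97 ± 0.17 (adjusted p = 5.41e-05), in the spleen group therefore opposite in sign to Psmb6. Psmb8, which replaces Psmb5, read 8.34, 8.53 and 8.93 in NN, 9.13, 9.40, 9.45 and 9.63 in G-MDSC, 6.40, 6.50 and 10.46 in TAN and 9.72, 9.83, 9.72, 9.77 and 10.30 in SM16. Of the TAN arrays, replicates 1 and 2 lay below NN and replicate 4 above it. Psmb8 was higher in SM16 than in NN by 1.31 ± 0.46 (adjusted p = 0.0176), and with median scaling it stood at 1.07 (adjusted p = 0.0554). Its G-MDSC difference of 0.84 (adjusted p = 0.176) was not called, although no G-MDSC array overlapped NN.

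**Figure D2:**
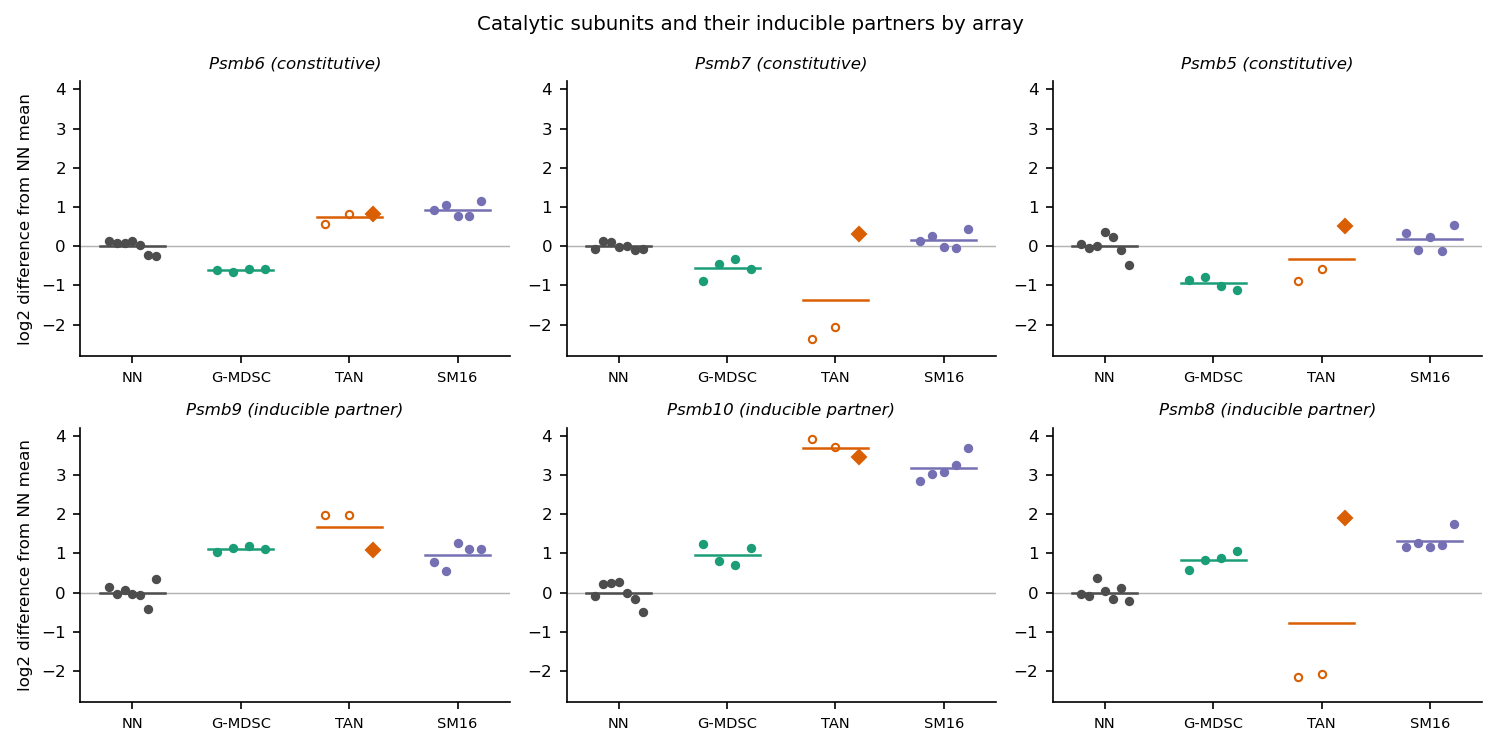
Difference of each array from the NN mean in log2 units (y axis) by group (x axis) for the constitutive catalytic subunits (top) and the inducible subunits that replace them (bottom); lines are group means, open circles TAN replicates 1 and 2, the diamond TAN replicate 4. By the brightest probe of each gene, G-MDSC arrays lie below 0 for all 3 constitutive genes and above 0 for all 3 partners. Another probe of Psmb7 stood at 0.12 in G-MDSC against NN, and Psmb10 is 3.18 above NN in SM16.

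The ATPases of the base were lower in G-MDSC than in NN for 4 of 6 genes (all genes: 23.1%), among them the dim Psmc6. They were higher in SM16 than in G-MDSC for 4 of 6 (all genes: 32.4%). Their median difference in G-MDSC against NN was -0.51, and -0.16 with median scaling, where 2 of 6 were called lower (all genes: 15.4%). Psmc1 read 9.84, 10.07 and 10.29 on the NN arrays at the lowest, the median and the highest. Psmc1 in G-MDSC read 9.28, 9.49, 9.70 and 9.52. Psmc1 read 9.63, 9.76 and 10.16 in TAN and 10.72, 10.84, 10.47, 10.66 and 10.90 in SM16. All SM16 arrays lay above all others and all G-MDSC arrays below all NN arrays. Psmc1 was lower in G-MDSC than in NN at -0.59 ± 0.13 (adjusted p = 0.000942), but -0.21 (adjusted p = 0.309) with median scaling and -0.39 (adjusted p = 0.164) against NN of the same array set, neither called. It was higher in SM16 than in NN by 0.63 ± 0.12 (adjusted p = 0.000141) (0.39 (adjusted p = 0.029) with median scaling) and higher than in TAN by 0.87 ± 0.15 (adjusted p = 0.000351), which TAN replicate 4 alone put at 0.56 (adjusted p = 0.133).

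By the brightest probe, Psmc5 differed most among the ATPases between tumour and spleen. Psmc5 read 9.82, 10.02 and 10.33 on the NN arrays at the lowest, the median and the highest. Psmc5 in G-MDSC read 9.95, 9.53, 9.27 and 9.47. Psmc5 read 11.31, 11.34 and 10.42 in TAN and 10.66, 11.06, 10.98, 10.96 and 11.28 in SM16. SM16 arrays lay above every NN and G-MDSC array, and TAN replicate 4 lay below TAN replicates 1 and 2. SM16 exceeded NN by 0.95 ± 0.16 (adjusted p = 3.4e-05) and G-MDSC by 1.43 ± 0.18 (adjusted p = 2.15e-06), the latter 0.82 (adjusted p = 0.00627) with median scaling. By the second probe these differences were 0.37 and 0.75, neither called. The second probe of Psmc5 read 5.79, 4.68 and 9.19 on the TAN arrays, low on the replicates where the first was high, so the TAN difference from NN of 0.99 (adjusted p = 0.000143) by the brightest probe had the opposite sign by the second. With TAN replicate 4 alone the brightest probe was not called, at 0.39 (adjusted p = 0.183). Psmc3 was lower in G-MDSC than in NN at -0.85 (adjusted p = 3.1e-05) and higher in SM16 by 0.32 (adjusted p = 0.0345), the latter 0.08 (adjusted p = 0.679) with median scaling and 0.22 (adjusted p = 0.147) within the array set. Against NN of the same array set the fall of Psmc3 in G-MDSC was -0.61 (adjusted p = 0.0252), and with median scaling -0.48 (adjusted p = 0.0271).

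Psmc2 was not called in any of the 3 comparisons with all NN arrays. Psmc2 read 12.07, 12.24 and 12.75 on the NN arrays at the lowest, the median and the highest. Psmc2 in G-MDSC read 12.08, 12.02, 12.10 and 11.93. Psmc2 read 12.90, 12.83 and 12.18 in TAN and 12.18, 12.47, 12.18, 12.31 and 12.55 in SM16. Only TAN replicates 1 and 2 lay above all NN arrays, and the other groups overlapped NN. The differences from NN were -0.29 (adjusted p = 0.127) in G-MDSC and 0.01 (adjusted p = 0.945) in SM16, and G-MDSC was called lower against NN of the same array set, at -0.66 (adjusted p = 0.0195). Psmc4 was higher in SM16 by 0.48 (adjusted p = 0.00711) and in TAN by 0.95 (adjusted p = 7.26e-05), the first lost with median scaling at 0.23 (adjusted p = 0.362) and the second with TAN replicate 4 alone at 0.44 (adjusted p = 0.104). Psmc6 was dim, detected on 4 arrays. Psmc6 read 5.25, 5.46 and 5.66 in NN (lowest, median, highest), 5.06, 4.75, 5.00 and 4.88 in G-MDSC, 6.38, 5.97 and 5.29 in TAN and 5.08, 5.05, 5.22, 5.30 and 5.35 in SM16. It was highest on TAN replicates 1 and 2, and no G-MDSC or SM16 array detected it. Psmc6 thus passed the filter on dim probes only through NN and TAN arrays. Its calls of lower levels in the other groups are therefore not independent of that filter. Psmc6 was at least 1.04-fold lower in G-MDSC than in NN (adjusted p = 0.012) and at least 1.43-fold lower in SM16 than in TAN (adjusted p = 0.0081). Here the dim group's arrays were raised to the lowest value of a probe detected on them, and TAN replicate 4 alone gave -0.09 (adjusted p = 0.898) for SM16 against TAN.

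Among the base subunits without ATPase activity, Psmd1 was the only 1 of 3 called in G-MDSC against NN. Psmd1 is a scaffold that holds a ubiquitin receptor. Psmd1 read 7.53, 7.86 and 8.01 on the NN arrays at the lowest, the median and the highest. Psmd1 in G-MDSC read 6.18, 6.46, 5.96 and 6.41. Psmd1 read 7.93, 7.69 and 6.49 in TAN and 7.25, 7.99, 7.18, 7.75 and 8.11 in SM16. G-MDSC arrays and TAN replicate 4 lay apart below all the rest, at 5.96 to 6.49. Psmd1 was lower in G-MDSC than in NN at -1.57 ± 0.24 (adjusted p = 2.08e-05) and against NN of the same array set at -1.38 (adjusted p = 0.017). SM16 exceeded G-MDSC by 1.40 ± 0.26 (adjusted p = 0.000111). Psmd1 was also the 1 gene of the 40 called between SM16 and TAN replicate 4 alone, at 1.17 (adjusted p = 0.0475), against 0.29 (adjusted p = 0.42) with all TAN arrays.

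Psmd4 is a ubiquitin receptor of the base. Psmd4 read 12.55, 12.63 and 12.84 on the NN arrays at the lowest, the median and the highest. Psmd4 in G-MDSC read 12.67, 12.85, 12.89 and 12.75. Psmd4 read 13.21, 13.32 and 12.69 in TAN and 12.80, 12.99, 13.04, 13.02 and 13.18 in SM16. TAN replicates 1 and 2 were the highest arrays and all groups overlapped. Psmd4 was higher than in NN by 0.34 (adjusted p = 0.00706) in SM16 and by 0.41 (adjusted p = 0.0057) in TAN, the latter 0.03 (adjusted p = 0.896) with TAN replicate 4 alone. Median scaling lost the call in SM16, at 0.15 (adjusted p = 0.467). Psmd2, the other scaffold of the base, had differences from NN of -0.50 (adjusted p = 0.0508) in G-MDSC, 0.19 (adjusted p = 0.41) in SM16 and 0.43 (adjusted p = 0.0922) in TAN, none called.

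In the lid, 2 of 7 genes were lower in G-MDSC than in NN (all genes: 23.1%) and 3 of 7 higher in SM16 than in NN (all genes: 32.7%), shares close to those of all genes. Median scaling turned the lid's median from -0.13 to 0.19 in the first and from 0.11 to -0.11 in the second. Psmd14 is the enzyme that cuts the ubiquitin chain from the substrate. Psmd14 read 9.75, 10.07 and 10.15 on the NN arrays at the lowest, the median and the highest. Psmd14 in G-MDSC read 8.81, 9.0, 8.94 and 9.04. Psmd14 read 10.24, 10.22 and 9.95 in TAN and 10.09, 10.11, 9.81, 9.95 and 10.61 in SM16. The 4 G-MDSC arrays lay below every other array, and NN, TAN and SM16 overlapped. Psmd14 was lower in G-MDSC than in NN at -1.06 ± 0.14 (adjusted p = 3.41e-06) (2.08-fold) and, against NN of the same array set, at -1.16 (adjusted p = 0.000822). With median scaling the fall was -0.70 (adjusted p = 0.00798). SM16 exceeded G-MDSC by 1.17 ± 0.15 (adjusted p = 1.94e-06) (0.59 (adjusted p = 0.0236) with median scaling) and its difference from NN was 0.11 (adjusted p = 0.482), not called.

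Psmd12 and Psmd8 are structural lid subunits. Psmd12 read 9.80, 9.89 and 9.96 on the NN arrays at the lowest, the median and the highest. Psmd12 in G-MDSC read 9.16, 9.60, 9.66 and 9.57. Psmd12 read 8.34, 8.47 and 10.20 in TAN and 10.56, 10.64, 10.39, 10.44 and 10.82 in SM16. SM16 arrays were all above NN, G-MDSC arrays all below, and TAN replicates 1 and 2 lowest of all. Psmd12 was higher in SM16 than in NN by 0.68 ± 0.22 (adjusted p = 0.0123) and its second probe was called higher too, but the brightest was not with median scaling, at 0.44 (adjusted p = 0.141). Psmd8 read 6.63, 6.86 and 7.17 on the NN arrays at the lowest, the median and the highest. Psmd8 in G-MDSC read 7.09, 7.45, 7.37 and 7.22. Psmd8 read 8.38, 8.67 and 7.43 in TAN and 7.63, 7.44, 7.84, 7.36 and 7.49 in SM16. TAN replicates 1 and 2 were highest and SM16 arrays lay above all NN arrays. Psmd8 was higher in SM16 than in NN by 0.64 ± 0.18 (adjusted p = 0.00453) and in TAN by 1.24 ± 0.21 (adjusted p = 4.06e-05), the latter 0.52 (adjusted p = 0.0834) with TAN replicate 4 alone.

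The remaining lid genes had small differences or discordant probes. Psmd6 was lower in G-MDSC at -0.68 (adjusted p = 0.000975), Psmd7 was higher in SM16 by 0.33 (adjusted p = 0.0405), and Psmd11 and Psmd13 were not called in either, at -0.14 (adjusted p = 0.65) and 0.07 (adjusted p = 0.673) in SM16. Median scaling lost the calls of Psmd6, at -0.48 (adjusted p = 0.0683), and Psmd7, at 0.12 (adjusted p = 0.618). In TAN against NN the brightest probe of Psmd11 was at -1.22 (adjusted p = 0.000957), but TAN replicate 4 alone was at -0.09 (adjusted p = 0.805). Psmd7 was higher in TAN than in NN by its brightest probe, at 0.75 (adjusted p = 0.000368) (0.41 (adjusted p = 0.139) with TAN replicate 4 alone), and its second probe read 4.83, 4.53 and 9.22 on the TAN arrays against 9.86, 9.94, 8.39, 8.70 and 9.74 on the SM16 arrays.

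**Figure D3:**
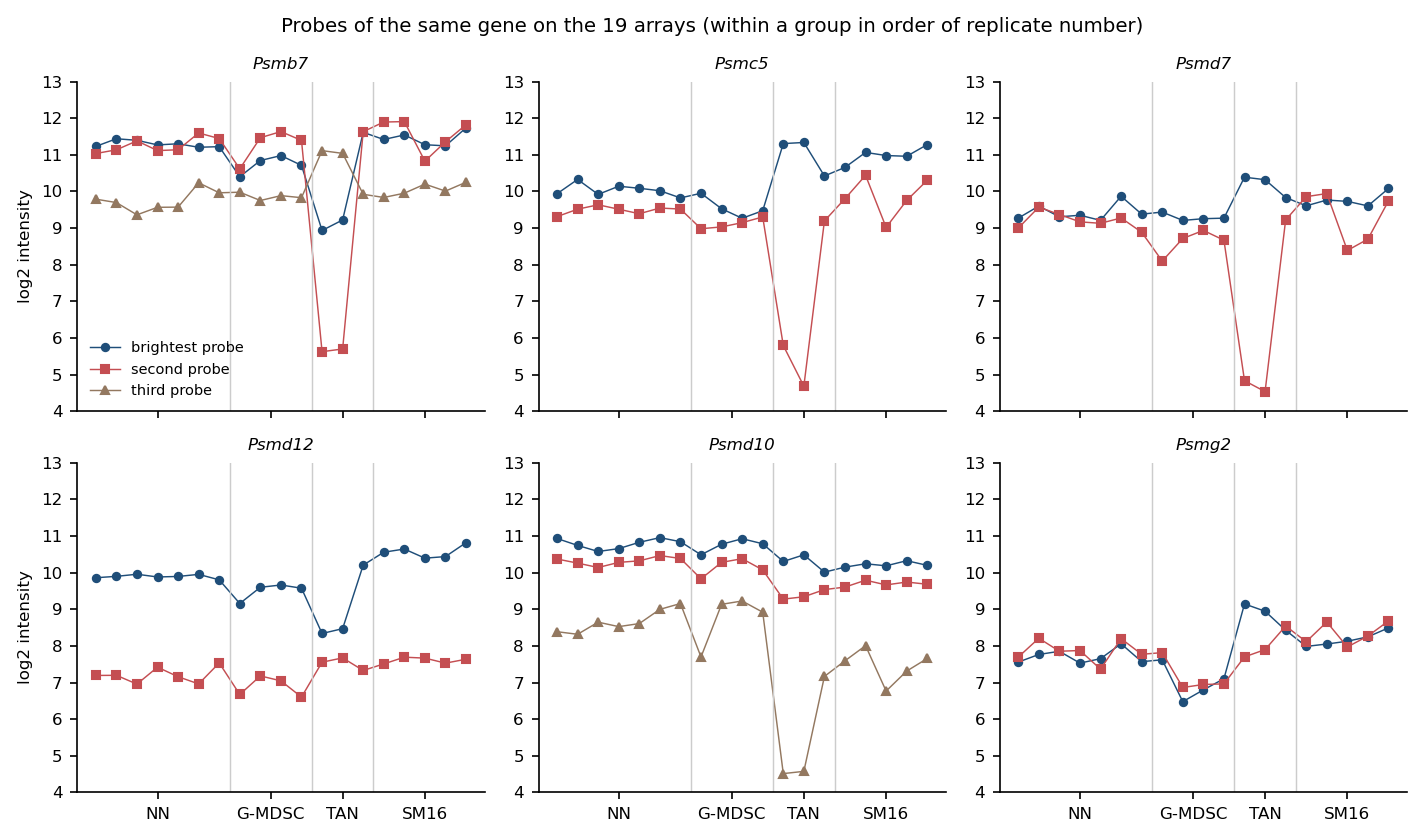
Log2 intensity (y axis) of the probes of 6 genes on the 19 arrays (x axis, by group, replicates in order of their number); each line is 1 probe. On TAN replicates 1 and 2, the first points of the TAN block, 1 probe of Psmb7, Psmc5, Psmd7 and Psmd10 drops to between 4.51 and 5.79 while the brightest probe of Psmc5 and Psmd7 rises, and on TAN replicate 4 the probes are back near the other groups.

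Of the 14 genes with 2 or more tested probes, probes were called in opposite directions for Psmb7, Psmd6 and Psmd7 in SM16 against TAN. The same held for Psmb7, Psmc5, Psmd6 and Psmd7 in TAN against NN, and for Psmb7, Psmc5, Psmd7 and Psmd9 in TAN against G-MDSC. No gene of the 14 had probes called in opposite directions in SM16 against NN, G-MDSC against NN or SM16 against G-MDSC. The median spread between probes of 1 gene was 1.26 log2 units in SM16 against TAN and 1.07 in TAN against NN, and 0.24 in SM16 against NN and 0.19 in G-MDSC against NN.

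The 3 chaperones of the base each behaved in a way of their own. Psmd5 holds the ATPase Psmc2 during assembly. Psmd5 read 5.73, 6.72 and 7.20 on the NN arrays at the lowest, the median and the highest. Psmd5 in G-MDSC read 5.44, 6.47, 7.14 and 6.43. Psmd5 read 4.42, 4.39 and 4.45 in TAN and 4.79, 5.45, 4.41, 4.78 and 4.75 in SM16. Psmd5 was detected on no TAN array and 1 of 5 SM16 arrays, and all TAN and SM16 arrays lay below all NN arrays. Psmd5 thus passed the filter on dim probes through NN and G-MDSC arrays. Its calls of lower levels in TAN and SM16 are therefore not independent of that filter. Psmd5 was at least 1.67-fold lower in TAN than in NN (adjusted p = 7.23e-06, and 0.0021 with TAN replicate 4 alone). It was lower in SM16 than in NN at -1.76 (adjusted p = 1.16e-05), but with 4 of 5 SM16 arrays not above background the size is uncertain, and without background correction it was -0.80 (adjusted p = 3.62e-05). The G-MDSC difference was not called, at -0.23 (adjusted p = 0.556). Psmd10, known as the oncoprotein gankyrin, fell as well. Psmd10 read 10.58, 10.83 and 10.95 on the NN arrays at the lowest, the median and the highest. Psmd10 in G-MDSC read 10.49, 10.77, 10.92 and 10.79. Psmd10 read 10.30, 10.49 and 10.01 in TAN and 10.15, 10.24, 10.19, 10.32 and 10.20 in SM16. All TAN and SM16 arrays lay below all NN and G-MDSC arrays, TAN replicate 2 only just. Psmd10 was lower in SM16 than in NN at -0.57 ± 0.11 (adjusted p = 0.000107), in TAN at -0.52 ± 0.13 (adjusted p = 0.00118) and with TAN replicate 4 alone at -0.78 (adjusted p = 0.000928), and its other probes were called lower too.

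Psmd9, which binds the ATPase Psmc3 during assembly, went the other way. Psmd9 read 5.97, 6.42 and 6.99 on the NN arrays at the lowest, the median and the highest. Psmd9 in G-MDSC read 6.04, 5.97, 5.95 and 5.56. Psmd9 read 7.57, 7.70 and 7.44 in TAN and 6.50, 6.88, 6.58, 7.18 and 6.85 in SM16. TAN arrays lay above every NN array and above every SM16 array by this probe, but the second probe stood at -0.54 in TAN against NN, not called. Psmd9 was higher in TAN than in NN by 1.12 ± 0.20 (adjusted p = 7.65e-05), or 0.98 (adjusted p = 0.0148) with TAN replicate 4 alone, and lower in G-MDSC at -0.57 (adjusted p = 0.0162). The fall in G-MDSC was not called against NN of the same array set, at -0.31 (adjusted p = 0.448), or with median scaling, at -0.46 (adjusted p = 0.086). SM16 was lower than TAN at -0.77 ± 0.21 (adjusted p = 0.00746), which was not called with TAN replicate 4 alone, at -0.64 (adjusted p = 0.323), or with median scaling, at -0.39 (adjusted p = 0.235), and the second, dimmer probe gave 0.46 (adjusted p = 0.184).

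The chaperones of the core, Psmg1 and Psmg2, which pair to seed the alpha ring, were called lower in G-MDSC and higher in both tumour groups than in NN, and the calls in G-MDSC held neither with median scaling nor within the array set. Psmg1 read 7.07, 7.57 and 7.77 on the NN arrays at the lowest, the median and the highest. Psmg1 in G-MDSC read 7.16, 6.77, 6.88 and 6.98. Psmg1 read 8.50, 8.62 and 8.55 in TAN and 8.06, 8.18, 7.97, 7.89 and 8.26 in SM16. TAN arrays were highest, SM16 arrays next and still above all NN arrays, and G-MDSC arrays overlapped NN at its lower end. Psmg1 was higher in TAN than in NN by 1.04 ± 0.16 (adjusted p = 1.4e-05) (2.06-fold), and TAN replicate 4 alone gave 1.03 (adjusted p = 0.00196). It was higher in SM16 by 0.56 ± 0.14 (adjusted p = 0.00153) and lower in G-MDSC at -0.57 ± 0.15 (adjusted p = 0.00384), the last -0.29 (adjusted p = 0.386) against NN of the same array set and -0.34 (adjusted p = 0.118) with median scaling. SM16 was lower than TAN at -0.48 ± 0.17 (adjusted p = 0.0284). That call was lost with TAN replicate 4 alone, at -0.47 (adjusted p = 0.353), with median scaling, at -0.30 (adjusted p = 0.258), and in a fit of these groups alone (adjusted p = 0.085).

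Psmg2 read 7.53, 7.65 and 8.06 on the NN arrays at the lowest, the median and the highest. Psmg2 in G-MDSC read 7.62, 6.48, 6.80 and 7.10. Psmg2 read 9.14, 8.95 and 8.43 in TAN and 7.99, 8.05, 8.13, 8.25 and 8.49 in SM16. TAN replicates 1 and 2 were highest, TAN replicate 4 lay within the SM16 range, and G-MDSC replicate 1 lay apart from the other G-MDSC arrays, within the NN range. Psmg2 was higher in TAN than in NN by 1.13 ± 0.22 (adjusted p = 0.000136) and in SM16 by 0.47 ± 0.18 (adjusted p = 0.0324), and lower in G-MDSC at -0.71 ± 0.20 (adjusted p = 0.00597). The fall in G-MDSC was -0.81 (adjusted p = 0.0776) against NN of the same array set and -0.48 (adjusted p = 0.109) with median scaling, and the rise in SM16 was 0.36 (adjusted p = 0.175) with median scaling, none called. With TAN replicate 4 alone the TAN difference was 0.72 (adjusted p = 0.0656), and by the other probe it was 0.19 (adjusted p = 0.494), neither called. Psmg3, which acts at the next step of ring assembly, was not called in any of these, at -0.32 (adjusted p = 0.217) in TAN (0.48 (adjusted p = 0.119) with TAN replicate 4 alone, and called at -0.68 (adjusted p = 0.0272) with median scaling), 0.08 (adjusted p = 0.723) in SM16 and -0.28 (adjusted p = 0.286) in G-MDSC.

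**Figure D4:**
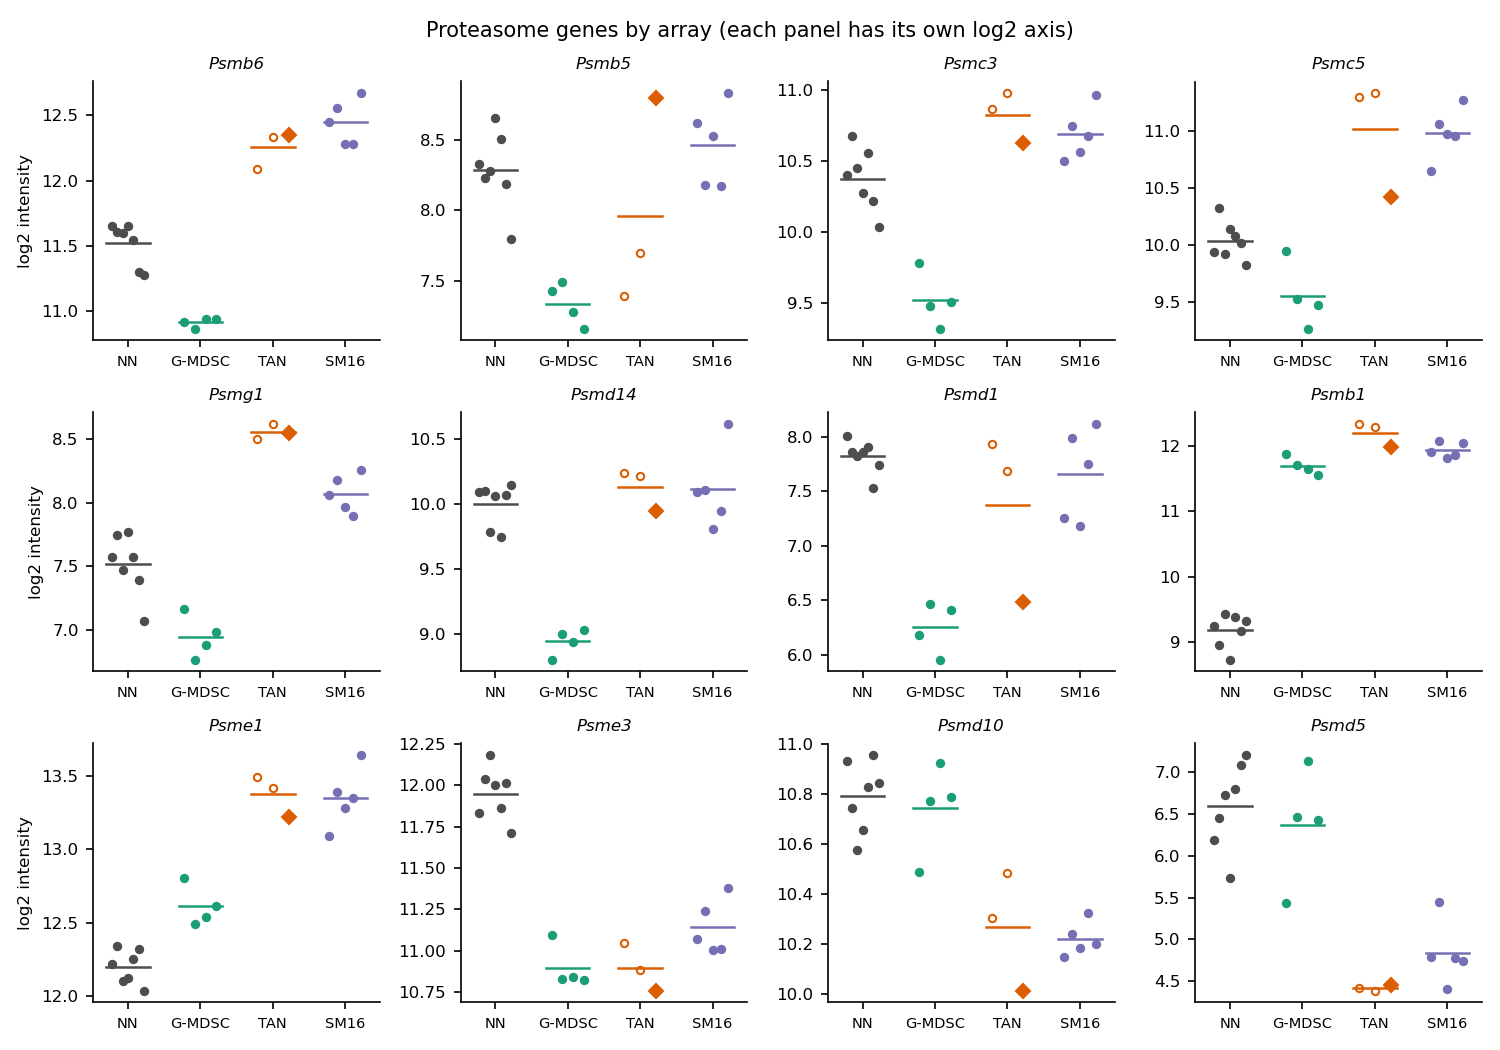
Log2 intensity (y axis, its own range in each panel) of 12 genes on every array by group (x axis); lines are group means, open circles TAN replicates 1 and 2, the diamond TAN replicate 4. Psmb1 separates NN from the rest, Psmd14 and Psmd1 are low in G-MDSC, and Psmd10 and Psmd5 are low in TAN and SM16.

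The activators were split. Psme1 forms, with Psme2, an interferon-induced cap that opens the core. Psme1 read 12.04, 12.22 and 12.35 on the NN arrays at the lowest, the median and the highest. Psme1 in G-MDSC read 12.80, 12.49, 12.54 and 12.62. Psme1 read 13.49, 13.42 and 13.22 in TAN and 13.09, 13.39, 13.28, 13.35 and 13.64 in SM16. G-MDSC arrays lay above NN, and TAN and SM16 arrays above both. Psme1 was higher than in NN by 1.15 ± 0.10 (adjusted p = 3.44e-09) in SM16 (2.21-fold), by 1.18 ± 0.12 (adjusted p = 3.66e-08) in TAN and by 0.41 ± 0.11 (adjusted p = 0.00344) in G-MDSC, and its second probe was called higher in all 3. TAN replicate 4 alone gave 1.02 (adjusted p = 7.65e-05), and against NN of the same array set the rise in G-MDSC was not called, at 0.43 (adjusted p = 0.0711). SM16 exceeded G-MDSC by 0.74 ± 0.11 (adjusted p = 1.62e-05), but by 0.09 (adjusted p = 0.67) with median scaling, which was not called.

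Psme2 depends on which TAN arrays are read. Psme2 read 8.77, 9.42 and 9.46 on the NN arrays at the lowest, the median and the highest. Psme2 in G-MDSC read 8.07, 8.54, 8.54 and 8.81. Psme2 read 4.49, 4.83 and 9.85 in TAN and 9.13, 9.21, 9.30, 9.18 and 10.02 in SM16. TAN replicates 1 and 2 were not detected and TAN replicate 4 was above every NN array. All TAN arrays together gave -2.85 (adjusted p = 0.00135) against NN, and TAN replicate 4 alone 0.61 (adjusted p = 0.126). SM16 exceeded TAN by 2.98 (adjusted p = 0.00365) with all arrays, and the value was -0.48 (adjusted p = 0.499) with TAN replicate 4 alone. The G-MDSC difference from NN was -0.75 (adjusted p = 0.361) in the fit of 4 groups, with an adjusted p of 0.00226 in the fit of G-MDSC and NN alone.

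Psme3, an activator of the nuclear core, was lower in all 3 groups than in NN. Psme3 read 11.71, 12.00 and 12.18 on the NN arrays at the lowest, the median and the highest. Psme3 in G-MDSC read 11.10, 10.83, 10.84 and 10.82. Psme3 read 11.05, 10.89 and 10.76 in TAN and 11.07, 11.24, 11.01, 11.01 and 11.38 in SM16. Every array outside NN lay below every NN array, and TAN and G-MDSC had the same mean of 10.90. Psme3 was lower in G-MDSC at -1.05 ± 0.11 (adjusted p = 1.92e-07) (-0.58 (adjusted p = 0.00379) with median scaling), in TAN at -1.05 ± 0.12 (adjusted p = 3.46e-07) and in SM16 at -0.81 ± 0.10 (adjusted p = 1.1e-06). TAN replicate 4 alone gave -1.19 (adjusted p = 2.24e-05), and G-MDSC against NN of the same array set -0.96 (adjusted p = 0.000588). Psme4, the large nuclear activator, was lower in G-MDSC at -0.29 (adjusted p = 0.02), but stood at 0.17 (adjusted p = 0.483) with median scaling and -0.35 (adjusted p = 0.0981) within the array set. Its differences of -0.18 (adjusted p = 0.0786) in SM16 (called with median scaling, at -0.42 (adjusted p = 0.0399)) and -0.23 (adjusted p = 0.0602) in TAN were not called.

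**Figure D5:**
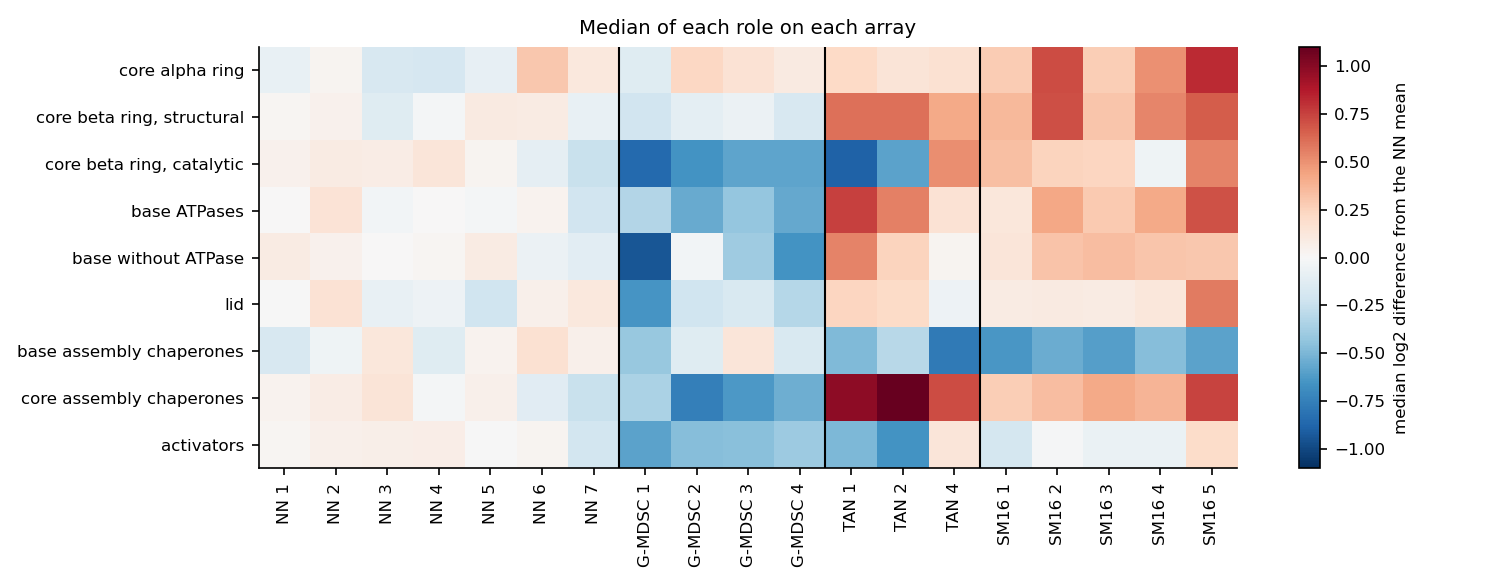
Median log2 difference from the NN mean (colour) over the genes of each role (rows) on every array (columns, by group). G-MDSC arrays are blue for the catalytic subunits, base ATPases, core assembly chaperones and activators, TAN and SM16 arrays are red for the core assembly chaperones and structural beta subunits, and the catalytic row changes sign between TAN replicates 1 and 2 and TAN replicate 4.

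Psmc3ip and Psme3ip1 are not proteasome subunits. Psmc3ip works in meiotic recombination. Psmc3ip read 7.84, 8.17 and 8.60 on the NN arrays at the lowest, the median and the highest. Psmc3ip in G-MDSC read 6.79, 5.87, 6.07 and 6.49. Psmc3ip read 8.31, 8.35 and 8.03 in TAN and 7.08, 7.50, 7.55, 7.65 and 8.01 in SM16. G-MDSC arrays lay below all others. Psmc3ip was lower in G-MDSC than in NN at -1.88 ± 0.21 (adjusted p = 3.31e-07) and in SM16 at -0.63 ± 0.19 (adjusted p = 0.00784). SM16 was lower than TAN at -0.67 (adjusted p = 0.0294), or -0.47 (adjusted p = 0.563) with TAN replicate 4 alone and -0.43 (adjusted p = 0.271) with median scaling, neither called. Psme3ip1 encodes a partner of Psme3. Psme3ip1 read 9.66, 9.90 and 9.99 on the NN arrays at the lowest, the median and the highest. Psme3ip1 in G-MDSC read 9.99, 10.13, 10.04 and 10.10. Psme3ip1 read 10.18, 10.13 and 9.14 in TAN and 9.27, 8.99, 9.32, 9.24 and 9.15 in SM16. SM16 arrays and TAN replicate 4 lay below all NN arrays, and TAN replicates 1 and 2 above them. Psme3ip1 was lower in SM16 than in NN at -0.67 ± 0.15 (adjusted p = 0.00045) and than in G-MDSC at -0.87 ± 0.17 (adjusted p = 0.000184), by both probes for NN (-1.42 (adjusted p = 3.12e-05) against G-MDSC with median scaling).

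SM16 against TAN compares tumour neutrophils with and without the drug, in preparations that also differed in the macrophage, hair and endothelial markers above. It had 8 genes higher (all genes: 17.6%) and 10 lower (all genes: 27.8%), with a median of -0.06 over the 40 genes and -0.21 over all genes. These counts rest on TAN replicates 1 and 2: with TAN replicate 4 alone, 1 gene was higher (all genes: 1.8%) and 0 lower (all genes: 2.13%), by limma over all probes, and at an unadjusted p under 0.05 there were 6 higher and 0 lower. Leaving out TAN replicate 1 gave 5 higher and 1 lower, leaving out TAN replicate 2 gave 2 lower, and leaving out SM16 replicate 1, 2 or 4 gave 6 lower. A limma fit of SM16 and TAN alone called 4 higher (all genes: 8.53%) and 0 lower (all genes: 13.1%), with 7 and 7 at an unadjusted p under 0.05. Shares of all genes were not taken at an unadjusted p or with 1 array left out. Groups did not overlap for 5 genes that were higher and 3 that were lower, against 23.6% of all genes. The test of 5 arrays against 1 misses smaller differences, so this does not show that the groups are alike.

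The same check in TAN against NN left 7 genes higher (all genes: 25.5%) and 7 lower (all genes: 23.5%) with TAN replicate 4 alone. Psma4, Psma7, Psmb7, Psmc6, Psmd12 and Psme2 then changed sign. Psma3, Psmb1, Psmb2, Psmb6, Psmd9, Psmg1 and Psme1 were higher and Psmd5, Psmd6, Psmd10 and Psme3 lower in both readings, by the brightest probe. With all TAN arrays, the other probes of Psmb2, Psmd10 and Psme1 were called in the same direction. That of Psmd6 was called higher, at 1.07, and that of Psmd9 stood at -0.54, not called.

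Further genes of the ubiquitin-proteasome system were read from a list chosen with earlier results known, of which 24 of 45 genes were tested. In SM16 against NN 14 of the 24 were higher (all genes: 32.7%) and 2 lower (31.5%), with a median of 0.71. In G-MDSC against NN 7 were higher (22.1%) and 5 lower (23.1%), near the shares of all genes, with a median of 0.12 where the subunits had -0.34. Within the array set G-MDSC had 3 higher (12.3%) and 4 lower (14%). TAN against NN had 11 higher (39.1%) and 5 lower (29.9%), or 12 (25.5%) and 6 (23.5%) with TAN replicate 4 alone. SM16 against TAN had 9 higher (17.6%) and 3 lower (27.8%), or 2 (1.8%) and 0 (2.13%) with TAN replicate 4 alone. In tumour against spleen, TAN had 13 higher (37.4%) and 6 lower (25.5%), or 7 (23.1%) and 3 (19.8%) with TAN replicate 4 alone, and SM16 had 9 higher (32.4%) and 1 lower (29.5%). Median scaling turned these counts against spleen to 4 higher (24%) and 7 lower (34.1%) in TAN and 4 higher (22.7%) and 4 lower (39.2%) in SM16.

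Usp14, a deubiquitinase that docks on the proteasome, read 6.85, 7.14 and 7.41 in NN (lowest, median, highest), 6.32, 6.23, 5.73 and 6.16 in G-MDSC, 8.03, 8.08 and 8.14 in TAN and 7.91, 7.87, 7.74, 7.70 and 8.29 in SM16. The tumour arrays lay above NN and the spleen arrays below it. Its differences from NN were 0.77 ± 0.15 (adjusted p = 0.000175) in SM16, 0.95 ± 0.18 (adjusted p = 0.000104) in TAN and -1.03 ± 0.16 (adjusted p = 2.95e-05) in G-MDSC. With TAN replicate 4 alone the TAN value was 1.01 (adjusted p = 0.0049), and without background correction the G-MDSC value was -0.56 (adjusted p = 0.000161). Pomp, the chaperone that closes the assembly of the core, read 12.10, 12.22 and 12.40 in NN, 12.23, 11.96, 11.91 and 12.25 in G-MDSC, 12.84, 12.86 and 13.03 in TAN and 12.87, 12.89, 12.84, 12.95 and 13.24 in SM16. Both tumour groups lay above all NN arrays. Pomp was higher than in NN by 0.72 ± 0.10 (adjusted p = 1.6e-06) in SM16 and 0.68 ± 0.11 (adjusted p = 2.95e-05) in TAN (0.80 (adjusted p = 0.000693) with TAN replicate 4 alone), and not called in G-MDSC, at -0.15 (adjusted p = 0.259).

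Vcp, the ATPase that extracts tagged proteins for the proteasome, read 12.12, 12.46 and 12.63 in NN (lowest, median, highest), 11.87, 11.59, 11.58 and 11.59 in G-MDSC, 12.27, 12.27 and 11.85 in TAN and 12.25, 12.51, 12.50, 12.69 and 12.90 in SM16. All G-MDSC arrays lay below all NN arrays. Vcp was lower in G-MDSC than in NN at -0.73 ± 0.13 (adjusted p = 0.000129), but not called with median scaling, at -0.25 (adjusted p = 0.255). Nfe2l1, the factor that drives subunit genes, read 10.84, 11.05 and 11.10 in NN, 10.76, 10.45, 10.39 and 10.62 in G-MDSC, 11.76, 11.76 and 10.38 in TAN and 10.65, 11.07, 11.07, 11.13 and 11.11 in SM16. Its differences from NN of -0.01 (adjusted p = 0.982) in SM16 and -0.46 (adjusted p = 0.0625) in G-MDSC were not called. TAN replicate 4 lay below all NN arrays and the other TAN arrays above them, so TAN differed by 0.28 (adjusted p = 0.245) in all and at -0.64 (adjusted p = 0.00679) with TAN replicate 4 alone.

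The list also holds genes known to be induced by stress. Zfand2a, which binds the proteasome under stress, read 8.65, 8.76 and 9.21 in NN (lowest, median, highest), 13.13, 11.22, 11.58 and 11.11 in G-MDSC, 12.84, 12.88 and 12.09 in TAN and 12.21, 12.07, 12.32, 11.98 and 11.78 in SM16. All arrays outside NN were higher than all NN arrays. Zfand2a was higher by 3.22 ± 0.26 (adjusted p = 1.46e-09) in SM16, 3.75 ± 0.31 (adjusted p = 2.59e-09) in TAN (3.23 (adjusted p = 1.32e-05) with TAN replicate 4 alone) and 2.90 ± 0.28 (adjusted p = 4.96e-08) in G-MDSC. Bag3, a cochaperone of Hsp70, was higher than in NN by 2.25 (adjusted p = 3.77e-10) in SM16 and by 2.05 (adjusted p = 2.27e-08) in TAN. Its TAN arrays read 10.37, 10.33 and 10.56. The G-MDSC difference of Bag3 from NN was not called, at 0.24 (adjusted p = 0.291), and SM16 exceeded G-MDSC by 2.01 (adjusted p = 3.75e-08). Nfe2l2, the other factor that binds the antioxidant response element, was higher than in NN by 2.04 (adjusted p = 0.00104) in G-MDSC and 2.60 (adjusted p = 0.000137) in TAN, the latter 2.35 (adjusted p = 0.0205) with TAN replicate 4 alone. Nfe2l2 read 5.27, 6.40 and 8.30 in NN (lowest, median, highest), with NN replicates 6 and 7 the highest. Against these arrays of the same set G-MDSC was not called, at 0.65 (adjusted p = 0.275). In SM16 Nfe2l2 was higher than in NN by 1.89 (adjusted p = 0.000632), and by 2.45 (adjusted p = 4.42e-06) against NN of the array set of SM16.

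Falls on the list were in other genes. Sem1, a small lid subunit, was lower than in NN at -0.87 (adjusted p = 3.89e-08) in SM16 and -0.82 (adjusted p = 1.08e-06) in TAN. Its TAN arrays read 13.56, 13.65 and 13.13. In G-MDSC Sem1 was lower at -0.67 (adjusted p = 7.81e-06), but stood at -0.08 (adjusted p = 0.731) with median scaling, not called. Faf1, a cofactor of Vcp, was lower in SM16 at -0.44 (adjusted p = 0.0102) and in G-MDSC at -0.94 (adjusted p = 3.64e-05), the latter not called with median scaling, at -0.51 (adjusted p = 0.0755). Uchl5, a deubiquitinase of the base, was lower in SM16 than in G-MDSC at -0.51 (adjusted p = 0.0193), or -1.08 (adjusted p = 0.00154) with median scaling. The falls of Nploc4, a cofactor of Vcp, and Tapbp, which helps load peptides for antigen presentation, were largest on TAN replicates 1 and 2. Nploc4 and Tapbp stood -2.75 (adjusted p = 9.29e-06) and -2.60 (adjusted p = 8.74e-05) against NN with all TAN arrays, and -0.73 (adjusted p = 0.00263) and -0.66 (adjusted p = 0.263) with TAN replicate 4 alone, where Nploc4 alone stayed called. In SM16 against TAN, Tapbp and Nsfl1c were higher by 2.69 (adjusted p = 0.000626) and 2.39 (adjusted p = 0.000472), and Psmb9 and Tap2 lower at -0.71 (adjusted p = 0.0118) and -0.67 (adjusted p = 0.00271), of which TAN replicate 4 alone left none called, at 0.74 (adjusted p = 0.476), 0.54 (adjusted p = 0.403), -0.11 (adjusted p = 0.898) and -0.45 (adjusted p = 0.317).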

How the data were processed

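Per the submitters' processing notes, signals came from GenomeStudio, whose version is not given in the sources used here. The authors deposited bead intensity values that were not normalized for 25697 probes on 19 arrays, with a detection p-value per probe per the file headers. They also deposited an intensity table of 17004 probes, quantile normalized by the authors. Gene symbols came from the platform annotation, and all 57 symbols matched current RefSeq names by gene ID.

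From the raw table, neqc (limma 3.58.1, R 4.3.3, offset 16) made background-corrected, quantile-normalized log2 values. Background was inferred from the deposited detection p-values, because control probes were not used here. Probes detected at p under 0.01 on at least 3 arrays (13945) were fitted with lmFit and eBayes (trend) over all 4 groups, with Benjamini-Hochberg adjustment over all of them. A gene was counted by its tested probe with the highest mean. The code was tested on simulated data. The number of arrays limits the precision.

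Where a probe was detected on no array of a group, a fold is a bound: each dim array took the value of its dimmest detected probe if that was higher. Per-array values are given for the catalytic subunits, 8 preset genes and, per comparison, the 3 largest called rises and falls. Other ubiquitin genes were named by the same kind of rule, with the 2 largest. The members, roles and lists were chosen with earlier results of these data known. Alternatives were no background correction, median scaling, no detection filter, the authors' table, a replicate block, array sets, fits of 2 groups and arrays left out.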

Additional observations from a re-analysis of the deposited data

Results flagged for a closer look

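In the NN, G-MDSC and SM16 groups, 120 sets of values of a gene's brightest probe were tested for a single array far from the others. In all, 4 stood apart, no more than the 1 in 20 or so that chance gives. Psmd2 read 5.74 on SM16 replicate 5, below the other SM16 arrays at 6.34 to 6.39. Psmd6 read 7.38 on the same array, above the others at 6.93 to 7.03, and Psme2 read 10.02 there, above the others at 9.13 to 9.30. Psme3 read 11.10 on G-MDSC replicate 1, above the other G-MDSC arrays at 10.82 to 10.84. That array also read 12.49 for the B cell marker Cd79a, against 7.20 to 8.08 on the other G-MDSC arrays, and a link was not tested.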

How the results depend on the processing

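Of 143 called differences, the authors' normalized table kept the direction and the call of 140 and lost the call of 3, no background correction lost 1, no detection filter 11 and a replicate block 15, with none of these turning a direction. Median scaling lost 41 calls and turned 9, within the array set 12 of 70 calls were lost and none turned, and TAN replicate 4 alone lost 35 of 74 and turned 14. The cause was not tested, except that TAN replicate 4 alone and the array sets use fewer arrays. TAN replicate 4 alone and array sets for single genes, and all these settings for genes of the ubiquitin list, were added after seeing the data.

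Counts of the 40 genes moved by over 1.5 times as follows. In SM16 against TAN, the 10 lower became 6 with no detection filter, 5 with the replicate block, 0 with only these groups and 0 with TAN replicate 4 alone, and the 8 higher became 4 and 1 in the last 2. In TAN against NN the 17 higher became 7 with TAN replicate 4 alone. Median scaling gave 8 higher in SM16 against NN, 7 higher and 7 lower in G-MDSC against NN, 13 and 10 in TAN against G-MDSC and 12 and 6 in SM16 against G-MDSC. Within the array set, G-MDSC against NN gave 1 higher (all genes: 12.3%) and 9 lower (all genes: 14%). In SM16 against TAN, 22.9% of all genes were lower with no detection filter and 23.7% with the replicate block. With only SM16 and TAN the share was 13.1%, and with only TAN and G-MDSC 18.5% of all genes were lower. In TAN against G-MDSC the 6 lower became 2 with only these groups and 3 with TAN replicate 4 alone.

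With TAN replicate 4 alone the sign turned in SM16 against TAN for Psmc4 (0.0432), Psmb7 (-0.17), Psme3ip1 (0.0547), Psme2 (-0.48), Psmd11 (-0.0459) and Psmd8 (0.12). It turned in TAN against NN for Psma4 (0.17), Psmb7 (0.32), Psma7 (0.14), Psmd12 (0.31), Psme2 (0.61) and Psmc6 (-0.17), and in TAN against G-MDSC for Psme2 (1.36) and Psmd11 (0.0281). Median scaling turned Psma2 (0.0360) and Psme4 (0.17) in G-MDSC against NN. In SM16 against G-MDSC it turned Psma2 (-0.38), Psma3 (-0.19), Psmb3 (-0.12), Psma5 (-0.14), Psmb2 (-0.0295), Psmc4 (-0.0828) and Psmd7 (-0.0903).

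Leaving out each array in turn gave 2 to 2 higher and 14 to 18 lower in G-MDSC against NN, 14 to 19 and 6 to 7 in SM16 against NN, and 13 to 20 and 8 to 13 in TAN against NN. It gave 21 to 23 higher and 3 to 3 lower in SM16 against G-MDSC. TAN against G-MDSC had 23 to 25 and 4 to 8, and SM16 against TAN 5 to 10 and 1 to 15. Shares of all genes were not taken for these fits.

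Replicate numbers did not clearly pair the arrays: of 22 pairs with the same number in 2 groups, 6 had a correlation of deviations over 0.1 (range -0.33 to 0.26). With so few arrays per group, this check cannot exclude a pairing. With the replicate block, SM16 against TAN had 7 genes higher (all genes: 15.8%) and 5 lower (all genes: 23.7%). TAN against NN had 16 (35.3%) and 9 (27.9%), and SM16 against NN 16 (30.2%) and 5 (29.9%). G-MDSC against NN had 2 (20.6%) and 15 (23.7%). TAN against G-MDSC had 23 (36%) and 6 (24.4%), and SM16 against G-MDSC 22 (31.3%) and 3 (28.1%).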
